A study of Mus musculus with 20 samples.

Results

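Vegfa and 9 other genes that are known to respond to low oxygen were followed through the mouse calf muscle at rest and 1 h after a treadmill run. The 10 genes, taken by symbol from the deposited counts table, were Vegfa, Bnip3, Ankrd37, Egln1, Egln3, Adm, Ero1l, P4ha1, Ndrg1 and Kdm3a. They are 10 of the 53311 rows of the table, and all 10 were among the 13560 genes with enough counts to be tested. The question was whether the run raised Vegfa, and whether it did so with or without the other hypoxia targets.

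RNA was sequenced from the gastrocnemius, a calf muscle made mostly of fast fibres, in 20 samples that fall into 4 groups of 5. All 20 carry the same genotype, Cre+:iMSBmal1 fl/fl, which is a Cre transgene together with floxed alleles of the clock gene Bmal1 (Arntl in the table). The mice were given vehicle or are labelled iMSBmal1KO. Each treatment has a set without exercise and a set taken 1 h after 30 min on a treadmill. A zeitgeber time of 13 h (ZT13) is given for all 20 samples. The labels do not name the promoter that drives Cre, the agent that induces it, or the age or sex of the animals, and for the exercised iMSBmal1KO samples the title says acute exercise and the description says exercise trained. Nothing states that replicates are separate animals, so the p-values measure the spread between these samples.

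Cells destroy the alpha subunits of hypoxia-inducible factor (HIF) while oxygen is plentiful: prolyl hydroxylases, encoded by the Egln genes, mark them for the ubiquitin ligase subunit VHL. When oxygen falls the alpha subunit survives, pairs with ARNT and binds the core letters ACGTG or GCGTG near its target genes. Vegfa, which encodes the main growth factor for blood vessel endothelium, is a classical target and is made in quantity by muscle fibres; in muscle it can also be raised by the coactivator PGC-1alpha (Ppargc1a) without HIF.

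Stretches before the start of 3 of the genes are printed because these genes stand for the patterns found below: P4ha1 rose with exercise, whereas Vegfa and Egln3 were not called with exercise and followed slow fibre markers. Each runs 5′ to 3′ for the 250 bases before the most upstream RefSeq start of the gene (build GRCm38.p6). Capitals mark ACGTG or GCGTG on either strand, so that CACGT and CACGC are the same letters read from the other strand.
P4ha1, chr10:59323046-59323295, plus strand: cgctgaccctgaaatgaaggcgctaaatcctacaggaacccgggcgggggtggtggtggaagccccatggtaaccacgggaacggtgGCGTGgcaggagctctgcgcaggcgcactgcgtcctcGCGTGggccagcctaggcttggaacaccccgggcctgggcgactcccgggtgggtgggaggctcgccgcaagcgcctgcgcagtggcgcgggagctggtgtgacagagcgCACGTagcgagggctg
Vegfa, chr17:46032378-46032627, minus strand: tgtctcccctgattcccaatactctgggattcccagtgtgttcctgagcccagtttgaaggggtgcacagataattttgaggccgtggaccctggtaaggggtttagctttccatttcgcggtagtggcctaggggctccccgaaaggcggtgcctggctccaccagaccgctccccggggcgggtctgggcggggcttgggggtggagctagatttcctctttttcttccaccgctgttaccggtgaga
Egln3, chr12:54203875-54204124, minus strand: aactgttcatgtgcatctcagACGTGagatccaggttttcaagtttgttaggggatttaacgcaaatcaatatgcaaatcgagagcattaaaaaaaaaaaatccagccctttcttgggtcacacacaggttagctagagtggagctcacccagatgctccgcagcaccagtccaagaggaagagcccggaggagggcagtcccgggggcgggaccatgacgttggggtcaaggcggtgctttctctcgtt
The P4ha1 stretch holds GCGTG with its first base at -163 and at -126 and ACGTG on the reverse strand at -16. The Egln3 stretch holds ACGTG once, at -229, and the Vegfa stretch holds no such match. Some genes not called with exercise held as many matches as P4ha1 or more. The numbers of ACGTG and GCGTG were 2 and 3 for Bnip3, 2 and 2 for Ankrd37 and 1 and 2 for Ero1l. Egln1 (1 and 1), Adm (0 and 2) and Kdm3a (0 and 1) held fewer. The number of matches thus did not set P4ha1 apart. In windows of 300 bases, 250 before and 50 after the start, RefSeq entries matched 9 of the 10 genes, all but Ndrg1. ACGTG or GCGTG was found on either strand in 8 of these 9 windows, all but that of Vegfa, and in 43.8% of the 27025 windows of the same length. ACGTG alone was in 6 of 9 (19.6% of all windows) and GCGTG alone in 7 of 9 (32.5%). CACGTG, the E-box that contains ACGTG, was in 1 of 9, that of Bnip3 (7.24%). Each gene was searched only in the window at its most upstream RefSeq start. Matches at other starts or farther away were not looked for, so the lack of one for Vegfa holds for this window alone. These matches are letters in a window, not binding sites.

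Total counts ran from 8045154 to 11269812 per sample. The skeletal muscle markers were high in every sample, with a summed level of 48890 to 72380 CPM (counts scaled to library size) for 6 genes. Slow fibre markers varied far more. A score formed as the mean log2 CPM of 8 slow fibre genes ran from 0.10 to 8.64, and 5 libraries lay below 4, at 0.10 to 2.87, against 4.56 to 8.64 in the other 15. These 5 were vehicle at rest replicate 5, vehicle exercise replicates 2 and 4, and knockout-labelled exercise replicates 2 and 4, so that 4 of the 10 exercised samples and 1 of the 10 rested samples were low. The slow myosin Myh7 was at 0 to 8.84 CPM in them and at 48.4 to 1236 CPM in the others. In whole muscle, fewer cells of a type in a sample and less RNA per cell cannot be told apart. Arntl was not lower in the knockout-labelled samples: at rest it averaged 14.5 ± 1.94 CPM there, against 12.3 ± 2.39 CPM with vehicle (SD, n = 5), while Dbp, a direct target of the clock, was lower by 2.66 on the log2 scale at rest (edgeR, adjusted p = 2.8e-14). The counts of Arntl may come from outside the deleted part, so directions between genotypes rest on the labels.

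Set per kilobase of annotated exon, so that genes can be compared, the 10 genes ran from 0.82 to 103 CPM per kb. Bnip3, which encodes a mitophagy receptor on the outer mitochondrial membrane, stood highest at 103 ± 11.4 CPM per kb over all 20 samples (SD), followed by Egln1 at 77.0 ± 6.30 and Vegfa at 68.5 ± 16.6. The spreads of Egln1 and Vegfa overlap. Egln3 followed at 18.1 ± 13.4 and P4ha1 at 10.6 ± 2.87 CPM per kb, also within their spreads. Ndrg1 (2.24 ± 0.41) and Kdm3a (1.43 ± 0.28) were low, and Adm (0.96 ± 0.34), Ero1l (0.92 ± 0.22) and Ankrd37 (0.82 ± 0.22) could not be put in order. Adm gave 5 to 27 counts per sample and Ankrd37 5 to 19, which limits what can be seen for them. Exons of Bnip3, Ankrd37 and Ndrg1 overlap other genes on the opposite strand (Gm45507; Lrp2bp and Ufsp2; Gm17035 and Gm2895), and whether counting used the strand is not given in the sources used here.

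**Figure D1:**
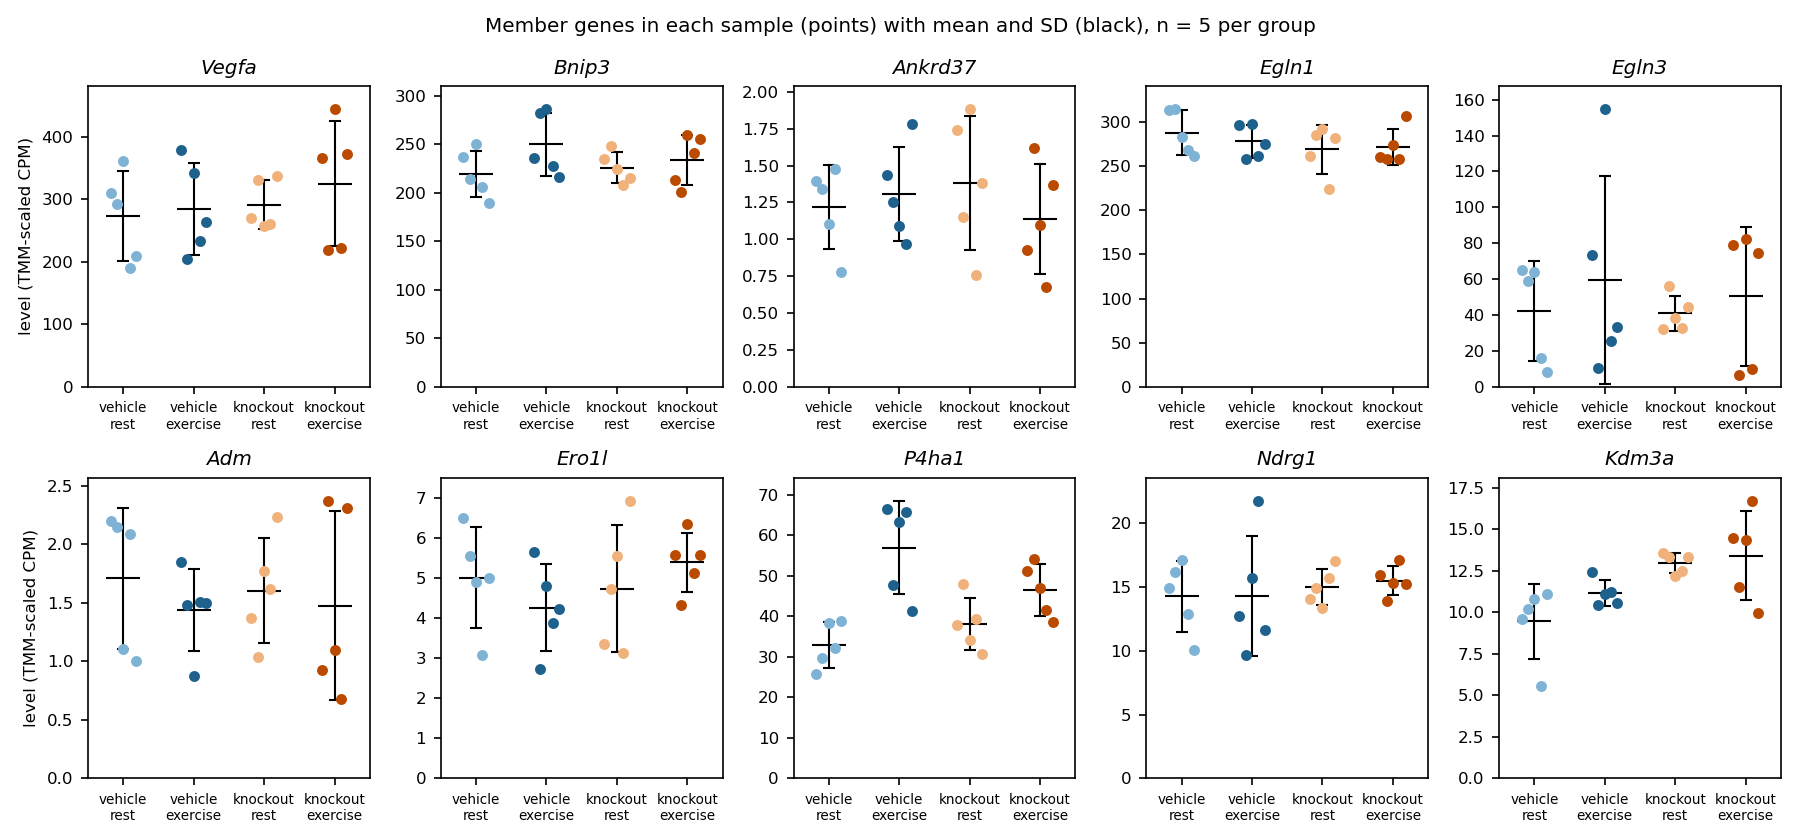
Level of each gene (TMM-scaled CPM, linear axis from 0) in every sample of the 4 groups, with the group mean and SD in black (n = 5); knockout means knockout-labelled. P4ha1 is higher in all 5 exercised than in all 5 rested vehicle samples. Vegfa and Egln3 have high and low samples in both exercise groups and also in vehicle muscle at rest.

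With exercise, 1 of the 10 genes changed. P4ha1, the catalytic alpha subunit of the prolyl 4-hydroxylase that stabilises collagen, rose 1.73-fold in vehicle muscle, and Vegfa, Bnip3, Egln1, Egln3, Adm, Ero1l, Ankrd37, Ndrg1 and Kdm3a did not pass the test. A gene was called at an adjusted p under 0.05 in edgeR's quasi-likelihood test, adjusted over all genes tested. By that rule 0.804% of genes were called for exercise in vehicle muscle and 0.634% for exercise averaged over both treatments, where P4ha1 was again the 1 member called. In vehicle muscle 1 of 10 members and 1209 of 13560 genes had an unadjusted p under 0.05. In knockout-labelled muscle 0 members and 0 of 13560 genes were called by edgeR, with 0 of 10 and 639 of 13560 at an unadjusted p under 0.05, and DESeq2 and limma-voom also called 0 genes.

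Among the collagen and protein folding genes, P4ha1 stood at 25.6, 29.6, 38.4, 32.2 and 38.8 CPM in the vehicle samples at rest. After exercise the vehicle samples were at 66.5, 47.8, 63.3, 65.7 and 41.3 CPM. Every exercised sample was above every rested one, which holds in either direction for 2.04% of all genes. The means were 32.9 ± 5.67 and 56.9 ± 11.6 CPM (SD, n = 5), and the log2 fold change was 0.79 (SE 0.15, 95% interval 0.49 to 1.09, edgeR adjusted p = 0.0083). In knockout-labelled muscle P4ha1 was at 37.9, 47.8, 34.1, 39.3 and 30.8 CPM at rest and at 51.2, 54.1, 46.8, 41.6 and 38.5 CPM after exercise. These groups overlap, and the log2 difference of 0.29 (interval -0.01 to 0.59) did not pass the test (edgeR adjusted p = 0.9995). The 2 exercise responses of P4ha1 differed by -0.50 on the log2 scale (interval -0.93 to -0.07, unadjusted p = 0.024), and this interaction did not pass after adjustment (edgeR adjusted p = 0.803). Averaged over both treatments the log2 fold change was 0.54 (SE 0.10, edgeR adjusted p = 0.0138). P4ha1 kept its call in vehicle muscle when any 1 of the 10 vehicle libraries was left out, and on average when any 1 of the 20 was.

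Ero1l, which encodes an oxidase that forms disulfide bonds in the endoplasmic reticulum, lay between 2.73 and 6.92 CPM. Its mean went from 5.01 ± 1.25 to 4.25 ± 1.08 CPM with exercise in vehicle muscle and from 4.73 ± 1.57 to 5.38 ± 0.74 CPM in knockout-labelled muscle (SD, n = 5). Neither difference, -0.24 and 0.18 on the log2 scale, passed the test (edgeR adjusted p = 0.872 and 0.9995).

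Of the secreted factors, Vegfa stood at 311, 293, 362, 190.3 and 209 CPM in vehicle muscle at rest and at 379.8, 204.5, 342.5, 234 and 264 CPM after exercise. The samples of both groups are interleaved, and each group holds high and low samples. The means were 273 ± 71.9 and 285 ± 73.85 CPM (SD, n = 5), a log2 fold change of 0.06 with a 95% interval of -0.39 to 0.51 (edgeR adjusted p = 0.984). In knockout-labelled muscle Vegfa was at 271, 331, 258, 261.5 and 337 CPM at rest. After exercise it was at 367, 219, 445, 223 and 372 CPM. The exercised samples thus lay on both sides of the rested ones, 3 above and 2 below all of them, and the log2 fold change was 0.16 with an interval of -0.29 to 0.61. Averaged over both treatments it was 0.11 (interval -0.21 to 0.43, edgeR adjusted p = 0.966), so a rise of up to 0.43 on the log2 scale lies within the interval. Leaving out 1 library gave 0.04 to 0.17 on average, -0.07 to 0.18 in vehicle and 0.01 to 0.27 in knockout-labelled muscle. Adm, which encodes the vasodilator peptide adrenomedullin, was at 1.71 ± 0.60 and 1.44 ± 0.35 CPM in vehicle muscle at rest and after exercise, a log2 difference of -0.25 (interval -0.96 to 0.46) at counts too low to show a small change.

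**Figure D2:**
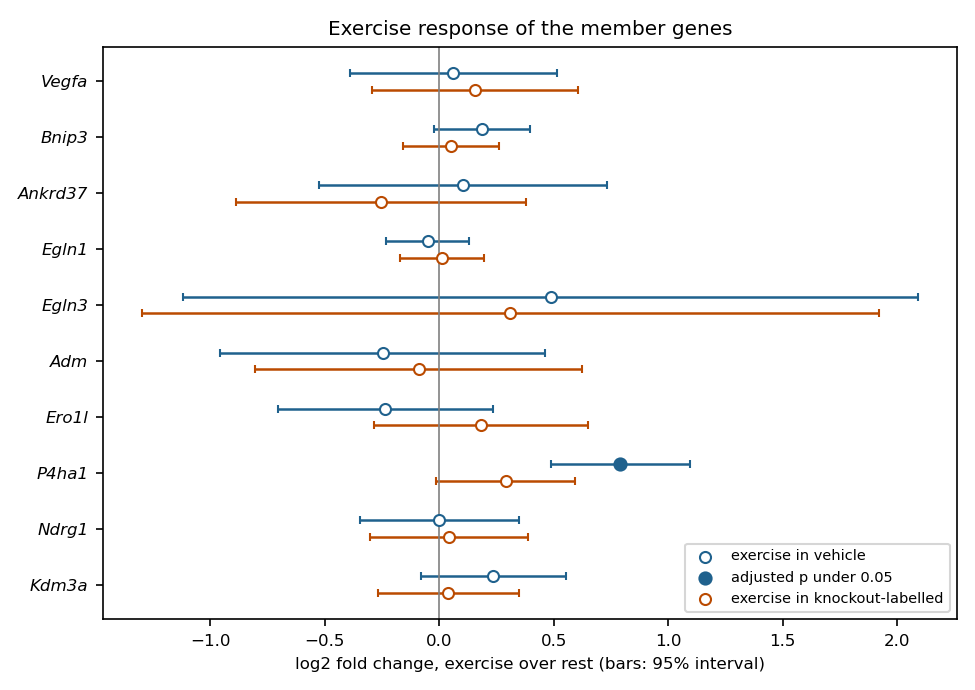
Log2 fold change, exercise over rest, of each gene in vehicle (blue) and knockout-labelled (orange) muscle, with 95% intervals; the filled point passed an adjusted p of 0.05. Only the interval of P4ha1 in vehicle muscle, 0.49 to 1.09, lies wholly above 0, and that of Egln3 is the widest.

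The oxygen-sensing hydroxylases Egln1 and Egln3 are both HIF targets that act back on HIF. Egln1, the main one in most tissues, was the steadiest gene of the 10 and lay between 224 and 315 CPM in all samples. Its log2 fold change was -0.05 (interval -0.23 to 0.13) in vehicle and 0.01 (interval -0.17 to 0.20) in knockout-labelled muscle. Egln3 was the least steady. In vehicle muscle it was at 65.1, 58.7, 63.8, 16.1 and 8.33 CPM at rest and at 73.3, 10.2, 154.7, 25.8 and 33.3 CPM after exercise. In knockout-labelled muscle it was at 32.3, 56.2, 38.4, 32.9 and 44.5 CPM at rest and at 79.2, 6.69, 82.2, 9.85 and 74.6 CPM after exercise. The lowest value in every group but knockout-labelled rest came from a library low in slow fibre markers. The log2 fold changes were 0.49 (interval -1.12 to 2.09) in vehicle and 0.31 (interval -1.30 to 1.92) in knockout-labelled muscle, and neither passed the test.

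Bnip3 had means of 219 ± 24.1 and 249.7 ± 32.3 CPM in vehicle muscle at rest and after exercise, and of 226 ± 15.7 and 234 ± 25.9 CPM in knockout-labelled muscle (SD, n = 5). Its log2 difference of 0.19 in vehicle muscle (interval -0.02 to 0.40, edgeR adjusted p = 0.629) did not pass. Ankrd37, an ankyrin repeat protein, moved by 0.11 in vehicle and -0.25 in knockout-labelled muscle on the log2 scale. Kdm3a, a histone H3 lysine 9 demethylase, had 0.24 and 0.04. Ndrg1, a stress-responsive gene that Schwann cells also use, had 0.00 and 0.04, and its highest value, 21.8 CPM, came from vehicle exercise replicate 4. In that library the summed level of 5 Schwann cell markers was also the highest, at 128.1 CPM against 17.6 to 92.3 CPM in the other 19; its part in the value was not tested.

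Between genotypes none of the 10 genes was called at rest, where 3.86% of all genes were, or after exercise, where 6.42% were (edgeR). At an unadjusted p under 0.05 the number was 1 of 10 at rest and 0 of 10 after exercise. Over all genes it was 1974 and 2632 of 13560. DESeq2 and limma-voom called 0 members in both contrasts. The log2 differences, knockout-labelled minus vehicle, ran from -0.10 to 0.45 at rest and from -0.29 to 0.34 after exercise. Kdm3a had the largest difference at rest, with 9.63, 10.2, 10.8, 5.54 and 11.1 CPM in vehicle and 13.6, 13.3, 12.2, 12.5 and 13.3 CPM in knockout-labelled samples. All 5 knockout-labelled samples were above all 5 vehicle samples, as happened in either direction for 5.80% of genes, and the log2 difference of 0.45 (interval 0.14 to 0.77) missed the threshold (edgeR adjusted p = 0.115). Vegfa differed by 0.09 at rest (interval -0.36 to 0.55) and by 0.19 after exercise (interval -0.26 to 0.64). The interaction called 0 members and 0 of 13560 genes in edgeR, with 1 of 10 and 791 of 13560 at an unadjusted p under 0.05, while limma-voom called 0 genes and DESeq2 called 3 genes and 0 members.

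Vegfa and Egln3 followed the slow fibre score. In the 5 libraries low in slow fibre markers Vegfa was at 204.5 to 234 CPM and Egln3 at 6.69 to 25.8 CPM, and in the other 15 Vegfa was at 190.3 to 445 CPM (median 331) and Egln3 at 16.1 to 154.7 CPM (median 58.7). With the score as a covariate beside the 4 groups, the slope per unit of score was 0.11 on the log2 scale for Vegfa (SE 0.02, edgeR adjusted p = 3.06e-05), 0.44 for Egln3 (SE 0.06, adjusted p = 0.000101) and 0.03 for Egln1 (SE 0.01, adjusted p = 0.0129). These 3 of 10 genes are near the background of 23.4% of all genes. P4ha1 had a slope of -0.01 (SE 0.02), and in the low libraries it spanned 38.8 to 65.7 CPM. Without the 5 low libraries 0 of the 10 slopes passed: that of Vegfa was 0.10 (SE 0.05, edgeR adjusted p = 0.257) and that of Egln3 0.26 (SE 0.14, adjusted p = 0.362). The slope of Egln1 was steeper there, at 0.08 (SE 0.02, edgeR adjusted p = 0.0694), and those of Bnip3 and Ero1l were 0.07 and 0.15 (adjusted p = 0.129 and 0.308). With the replicate number as a block 2 of the 10 slopes passed, and that of Egln1, 0.03, did not (edgeR adjusted p = 0.0929).

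**Figure D3:**
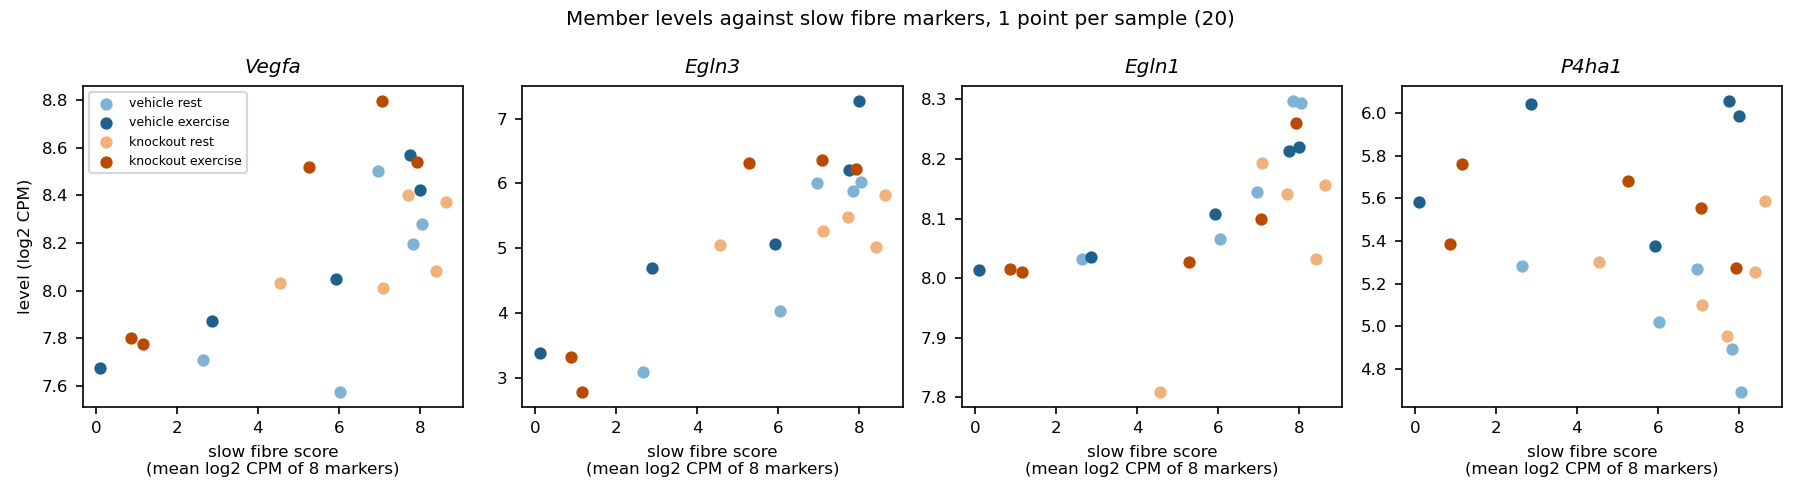
Level (log2 CPM) of Vegfa, Egln3, Egln1 and P4ha1 against the slow fibre score (mean log2 CPM of 8 markers), 1 point per sample, coloured by group. The 5 samples below a score of 4 lie at the low end for Vegfa and Egln3 and are spread over the range for P4ha1.

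Since more exercised than rested samples were low in slow fibre markers, the exercise differences were also taken with the score held fixed, and without the low libraries. With the covariate the averaged exercise difference of Vegfa was 0.32 on the log2 scale (SE 0.09, interval 0.13 to 0.50, unadjusted p = 0.00155, edgeR adjusted p = 0.0663), which misses the threshold. It was 0.20 (SE 0.12) in vehicle and 0.43 (SE 0.12, edgeR adjusted p = 0.24) in knockout-labelled muscle. Egln3 gave an averaged difference of 0.93 (SE 0.29, interval 0.33 to 1.54, edgeR adjusted p = 0.121). Without the 5 libraries the averaged difference was 0.31 (SE 0.12) for Vegfa and 0.85 (SE 0.34) for Egln3, and neither passed (edgeR adjusted p = 0.381 and 0.424). Both genes thus had larger averaged values than with all samples and no covariate, without a call. The call of P4ha1 was there in each fit, with 0.53 (SE 0.11, edgeR adjusted p = 0.0159) under the covariate, where 1.96% of all genes were called, and 0.56 (SE 0.12, adjusted p = 0.0385) without the 5 libraries, where 0.983% were. Under the covariate the other 7 genes lay between -0.11 and 0.16. The highest of these, Bnip3 at 0.16, also had an interval above 0 (0.02 to 0.31, unadjusted p = 0.0278). It was not called (edgeR adjusted p = 0.278).

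**Figure D4:**
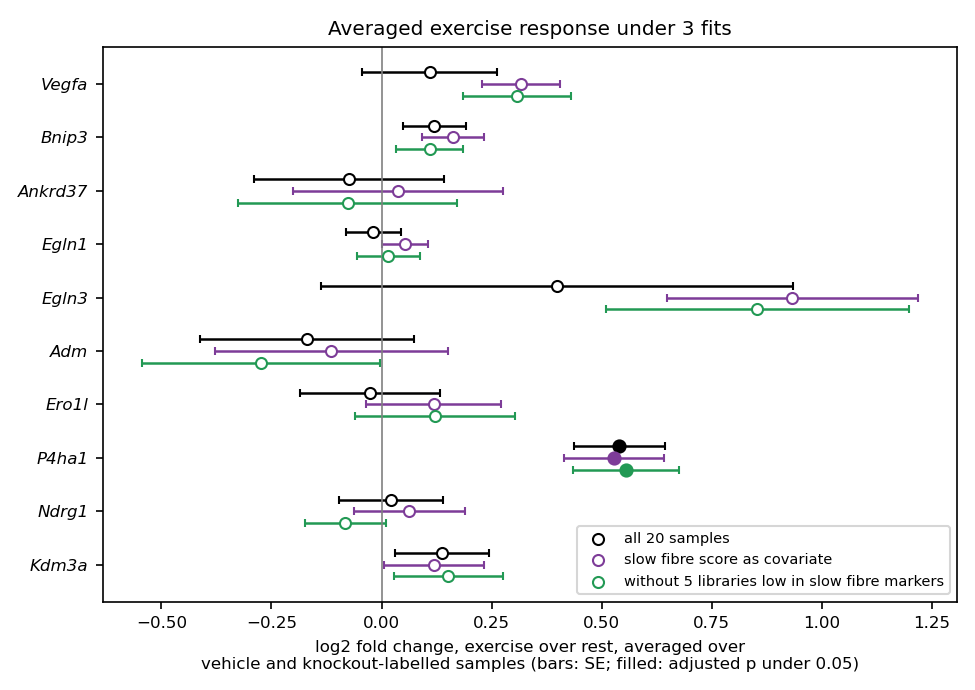
Exercise over rest, averaged over both treatments (log2 fold change with SE), with all 20 samples (black), with the slow fibre score as covariate (purple) and without 5 libraries low in slow fibre markers (green); filled points passed an adjusted p of 0.05. P4ha1 stays near 0.54 in all fits, while Vegfa moves from 0.11 to about 0.32 and Egln3 from 0.40 to 0.93.

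The endothelial markers, 10 genes that include the VEGF receptor gene Kdr, were summed as well. The 4 exercised libraries low in slow fibre markers were at 117.3 and 170.4 CPM (vehicle) and 163.6 and 128.2 CPM (knockout-labelled). The other 6 exercised libraries were at 173.3 to 207 CPM and the 10 rested ones at 167 to 225 CPM. The rested library low in slow fibre markers, vehicle replicate 5, was at 196.1 CPM, the median of its group. None of these markers was at 0 in any library. With their score as covariate Vegfa had an averaged exercise difference of 0.33 (SE 0.13, edgeR adjusted p = 0.265) and P4ha1 of 0.54 (SE 0.12, adjusted p = 0.0251), in a fit that called 1.22% of all genes.

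Genes most like Vegfa across the 20 samples, by Pearson r of log2 CPM among 9922 genes, were Fnip2 (r = 0.947), Perm1 (r = 0.927), Dusp18 (r = 0.917), Pfkfb2 (r = 0.912) and Mafk (r = 0.908). Perm1 is known as a muscle regulator induced by PGC-1 and ERR, and Fnip2 encodes a partner of folliculin. All 5 also rose with the slow fibre score, as Vegfa did (edgeR adjusted p of the slope from 5.25e-07 for Perm1 to 0.00384 for Mafk). Whether their likeness to Vegfa goes beyond that score was not tested. Among the members, Egln3 ranked 22nd in likeness to Vegfa with r = 0.879, Ero1l had r = 0.658 and Egln1 r = 0.48. Egln3 itself was most like AC157554.3 (r = 0.953) and Nceh1 (r = 0.951), which rose with the score too (edgeR adjusted p of the slope 6.5e-06 and 2.59e-05).

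P4ha1 had other neighbours: Stip1 (r = 0.903) and Dnaja1 (r = 0.898), which encode cochaperones of the heat shock proteins. With group means taken out, r was 0.794 and 0.742, so part of the likeness lies in the group differences. Ndrg1 was most like Cd9 (r = 0.856) and the myelin gene Mbp (r = 0.796). For Egln1 the nearest were Eng (r = 0.815) and mt-Co1 (r = 0.801), for Kdm3a Lpp (r = 0.826) and Tia1 (r = 0.817), and for Bnip3 Gm10221 (r = 0.821) and Dnpep (r = 0.80). Ankrd37 (Fbxl20, r = 0.733), Adm (Pias4, r = 0.766) and Ero1l (Ankrd50, r = 0.783) had weaker neighbours. All these r values come from the same 20 libraries.

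Transcripts of the HIF pathway genes showed no called change with exercise. The alpha subunits are controlled as proteins, which were not measured here, so these levels do not show whether HIF was active. Of 9 genes of the system, 8 were tested and 0 were called in vehicle or knockout-labelled muscle by edgeR, DESeq2 or limma-voom. At an unadjusted p under 0.05 edgeR gave 1 and 0, against 1209 and 639 of all 13560 genes. The alpha subunit genes Hif1a and Epas1 had log2 fold changes of -0.07 and 0.01 in vehicle muscle, and the partner Arnt had -0.08. Hif3a, another alpha subunit gene, had 0.34 at 10 to 40 counts per exercised vehicle sample. Vhl was at 6.11 ± 0.89 CPM at rest and 4.42 ± 0.79 CPM after exercise in vehicle muscle, a log2 difference of -0.47 (interval -0.82 to -0.12) that did not pass (edgeR adjusted p = 0.31). The asparaginyl hydroxylase gene Hif1an had -0.05, the HIF competitor Cited2 0.26, and Arnt2 had too few counts to test. Egln2, the third prolyl hydroxylase gene, was lower in knockout-labelled than in vehicle muscle after exercise, at 73.7 ± 8.29 against 98.9 ± 15.7 CPM (log2 difference -0.42, edgeR adjusted p = 0.0329). It was the 1 call among the 8 genes in that contrast, where 6.42% of all genes were called. That call was lost when any of 6 single libraries was left out (vehicle exercise replicate 1, 2 or 4, or knockout-labelled exercise replicate 1, 4 or 5), with adjusted p between 0.0549 and 0.106, without the 5 libraries low in slow fibre markers (edgeR adjusted p = 0.294), and with the replicate number as a block (-0.42, adjusted p = 0.0587).

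No VEGF ligand or receptor gene was called for exercise in either treatment or between genotypes (0 of 9 in edgeR, DESeq2 and limma-voom). In edgeR 1 of 9 had an unadjusted p under 0.05 for exercise in each treatment and at rest between genotypes, and 2 of 9 after exercise. Of all 13560 genes, 1209 and 639 had such a p for exercise in vehicle and knockout-labelled muscle. Between genotypes it was 1974 at rest and 2632 after exercise. The other ligand genes in vehicle muscle had log2 differences of 0.12 (Vegfb), -1.37 (Vegfc), -0.22 (Vegfd) and -0.43 (Pgf) with exercise. That of Vegfc, which acts mainly on lymphatic vessels, rests on 7 to 13 counts per sample at rest and 1 to 8 after exercise, and did not pass (unadjusted p = 0.00592, edgeR adjusted p = 0.236). The receptor genes had 0.30 (Flt1), -0.52 (Kdr), 0.43 (Flt4), -0.17 (Nrp1) and -0.14 (Nrp2), with unadjusted p from 0.0659 to 0.639.

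Of 29 further HIF targets tested, edgeR and limma-voom called 0 with exercise in vehicle muscle and DESeq2 called 1. In edgeR 6 of the 29 had an unadjusted p under 0.05, against 1209 of all 13560 genes. Ddit4, a stress-responsive inhibitor of mTORC1 named here after its values were seen, had a log2 fold change of 3.04 in vehicle muscle (interval 1.57 to 4.52, edgeR adjusted p = 0.0543) and of 2.12 on average (adjusted p = 0.0534), which miss the threshold. The list's median log2 fold change was 0.05, against 0.00 over all genes. Of 15 glycolytic targets 0 were called by any of these tools (1 at an unadjusted p under 0.05 in edgeR), with a median of 0.16. Between genotypes 3 of the 29 further targets were called at rest, where 3.86% of all genes were. Wsb1 was higher by 1.65, and Bhlhe40 (1.25) and Mxi1 (0.38) fell by these amounts on the log2 scale in knockout-labelled muscle. After exercise, where 6.42% of all genes were called, the 3 calls were Wsb1 (1.97), Higd1a (-0.48) and Mxi1 (-0.33). Bhlhe40 is itself a clock gene. The calls of Mxi1 were lost without any of 4 single libraries at rest (vehicle replicate 3, knockout-labelled replicates 1, 3 and 4, adjusted p up to 0.0759) and of 6 after exercise (vehicle replicates 1, 3 and 5, knockout-labelled replicates 2, 3 and 4, adjusted p up to 0.113). Without the 5 libraries low in slow fibre markers neither Higd1a nor Mxi1 was called after exercise (edgeR adjusted p = 0.173 and 0.172). The hexokinase gene Hk2 was the 1 of 15 glycolytic targets that edgeR and limma-voom called. It was lower by 0.78 at rest and 0.84 after exercise in knockout-labelled muscle on the log2 scale (edgeR adjusted p = 0.0129 and 0.00527). DESeq2 called 1 glycolytic target at rest and 2 after exercise.

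Other angiogenic genes, 18 tested, gave 1 call with exercise averaged over both treatments, where 0.634% of all genes were called. Aplnr, the apelin receptor gene of endothelium, fell from 4.06 ± 1.14 to 1.84 ± 0.40 CPM in vehicle and from 4.38 ± 1.45 to 2.69 ± 0.81 CPM in knockout-labelled muscle (averaged log2 fold change -0.91, edgeR adjusted p = 0.0266). DESeq2 called it too and limma-voom did not (-0.88, adjusted p = 0.0661). The call was lost without vehicle at rest replicate 1 or 2, knockout-labelled rest replicate 3 or knockout-labelled exercise replicate 5 (adjusted p from 0.0507 to 0.0709), and without the 5 libraries low in slow fibre markers (-0.84, adjusted p = 0.0987). With the score of the endothelial markers as covariate Aplnr was not called either (-0.65, SE 0.20, edgeR adjusted p = 0.125). Nos1, which encodes the neuronal nitric oxide synthase of muscle, was lower in knockout-labelled muscle after exercise (-0.46, edgeR adjusted p = 0.0323). It was the 1 call among these 18 genes in that contrast, a share near the 6.42% of all genes called. The call was lost without vehicle replicate 1 or 5 or knockout-labelled replicate 1 or 2 (edgeR adjusted p from 0.0784 to 0.0947).

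Of 8 regulators of Vegfa in muscle 0 were called with exercise by edgeR, DESeq2 or limma-voom. In edgeR 1 and 0 had an unadjusted p under 0.05 in vehicle and knockout-labelled muscle, against 1209 and 639 of all 13560 genes. Ppargc1a, singled out after its values were seen because it acts on Vegfa without HIF, had a log2 fold change of 1.33 in vehicle muscle (interval 0.15 to 2.52, unadjusted p = 0.0301, edgeR adjusted p = 0.461) and 0.38 in knockout-labelled muscle.

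Immediate early genes, transcription factors and kinases that contraction is known to induce, gave more calls in the same libraries. In vehicle muscle 5 of 12 were called, all higher: Nr4a2 (4.97), Fosb (2.78), Sik1 (2.77), Junb (2.72) and Nr4a1 (1.37), on the log2 scale. Over all genes the share called there was 0.804%. The list was chosen with earlier results of these data known and includes the label checks Nr4a2 and Sik1. Its number of calls is therefore a description only. Sik1 went from 11.4 ± 3.51 to 78.1 ± 20.9 CPM. The same 5 were lower in knockout-labelled than in vehicle muscle after exercise, Sik1 at 28.3 ± 10.7 CPM, in a contrast where 6.42% of all genes were called. With exercise in knockout-labelled muscle 0 of 12 were called (edgeR, DESeq2 and limma-voom, with 5 of 12 at an unadjusted p under 0.05 in edgeR). The interaction was called for 0 of 12 by edgeR and limma-voom (5 at an unadjusted p under 0.05) and for 1 by DESeq2. Of all 13560 genes, 639 had such a p for exercise in knockout-labelled muscle and 791 for the interaction. The Nr4a1 difference between genotypes lost its call without vehicle exercise replicate 2 or 4 or knockout-labelled exercise replicate 4 (edgeR adjusted p up to 0.0648). Without the 5 libraries low in slow fibre markers Nr4a1 was called neither with exercise in vehicle muscle nor between genotypes (edgeR adjusted p = 0.292 and 0.386), nor was Sik1 between genotypes (0.102). In vehicle muscle Junb lost its call when vehicle at rest replicate 2, 4 or 5 was left out (edgeR adjusted p from 0.0579 to 0.0606). With limma-voom Junb was called neither with exercise in vehicle muscle (2.27, adjusted p = 0.129) nor between genotypes after exercise (-1.70, adjusted p = 0.0682).

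**Figure D5:**
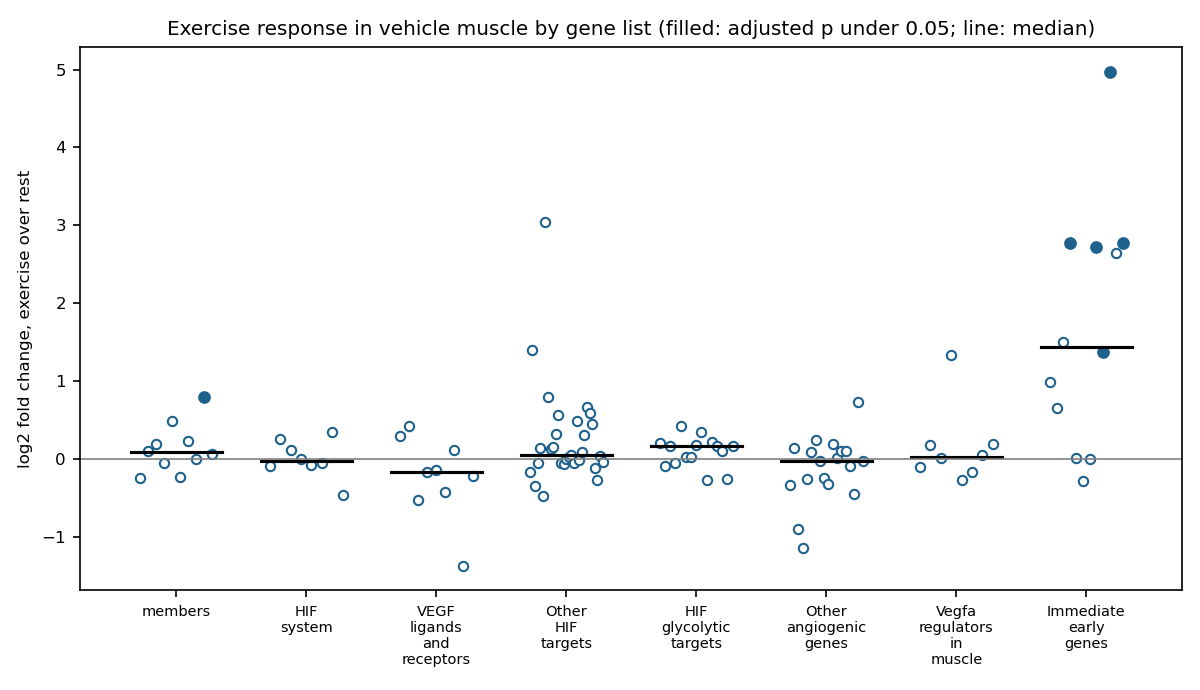
Log2 fold change, exercise over rest in vehicle muscle, of every tested gene in the member set and 7 gene lists; filled points passed an adjusted p of 0.05 and lines mark medians. Called genes are P4ha1 among the members and 5 immediate early genes, and the HIF system and VEGF lists hold none. The lists were chosen with earlier results of these data known.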

How the data were processed

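The deposited file held whole-number counts per gene symbol for 20 samples of mouse gastrocnemius RNA; per the submitters' processing notes, STAR 2.7.8a, Partek and DESeq2 were used and the builds mm10 and GRCm39 are named, without roles. The counting program, its strand setting and the annotation are not given in the sources used here, so no coordinates were taken for the counts; exon lengths and overlaps come from GENCODE M21 and promoter windows from RefSeq GRCm38.p6. A symbol was repeated in 106 rows.

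Samples were grouped by their titles. Counts were filtered with filterByExpr (minimum 10), scaled by TMM and fitted with edgeR 4.0.16 (R 4.3.3), robust quasi-likelihood, 1 mean per group over 4 groups. 6 contrasts were tested, and p-values were adjusted by Benjamini-Hochberg over 13560 genes, which hold 99.83% of counts; an adjusted p under 0.05 was a call. CPM are TMM-scaled, and log2 CPM use a prior count of 2. The script was tested on simulated counts. Same-numbered samples were not taken as pairs, and the check is given under the closing section.

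The 10 genes, the gene lists and the tests were chosen with earlier results of these data known. Named were all 10 members, every gene of the HIF system and VEGF lists, up to 4 called genes per comparison of each other list, and the nearest genes by Pearson r among genes with a mean log2 CPM of at least 2 (5 for Vegfa, 2 for each other member, 1 shown for the weakest). The immediate early genes include the label checks Nr4a2 and Sik1, and the fifth gene of a count was named after its value was seen. Alternatives were other scalings (RLE, upper quartile, library size), DESeq2 1.42.0, limma-voom (limma 3.58.1), other filters, covariates, a replicate block and leaving out each library. Marker lists covered skeletal muscle, slow and fast fibres, endothelium, smooth muscle and pericytes, red blood cells, leukocytes, fibroblasts, adipocytes, Schwann cells and satellite cells.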

Additional observations from a re-analysis of the deposited data

Results flagged for a closer look

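Kdm3a in vehicle muscle at rest held 1 sample far from the others: replicate 4 was at 5.54 CPM, and the other 4 were at 9.63 to 11.1 CPM. It was the 1 flag among 40 gene and group combinations examined with Dixon's test, and chance flags about 1 in 20. This library is one of the 5 behind the Kdm3a difference at rest between genotypes.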

How the results depend on the processing

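The member counts, 1 called with exercise in vehicle muscle and on average and 0 in the other 4 contrasts, were the same under every alternative run, and P4ha1 kept its call in vehicle muscle in 25 and on average in 34 alternatives. Of 2496 alternative values for 89 results, 2296 kept their direction and side of the threshold. The cause of the changes below was not tested.

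Counts of genes called moved as follows. For exercise in vehicle muscle (109) DESeq2 gave 195, the slow fibre covariate 248, the endothelial covariate 231, the 2 groups alone 61, an adjusted p under 0.10 165, and leaving out the 5 libraries low in slow fibre markers (chosen after seeing the data, as was the slope) 61. On average (86) DESeq2 gave 167, the covariates 266 and 166, the looser threshold 136, the low libraries left out 135 and limma-voom 54. In knockout-labelled muscle (0) the covariates gave 8 and 1 and leaving out the low libraries 3. Between genotypes the slow fibre covariate gave 850 at rest (523) and 1419 after exercise (870), where the groups alone gave 567, the looser threshold 1345 and the low libraries left out 304. DESeq2 gave 3 for the interaction (0). For the slope (3169 genes, 3 members) the replicate block gave 1718 genes, library size scaling 5 members, and the low libraries left out 370 genes and 0 members. Leaving out 1 library gave 52 to 135 genes for exercise in vehicle, 35 to 109 on average, 0 to 1 for the interaction, with the lowest counts without vehicle at rest replicate 5 (52) and replicate 4 (35). The vehicle count fell by over 1.5 times without vehicle at rest replicate 1, 2, 4 or 5 or vehicle exercise replicate 3 or 4, and the averaged one without vehicle at rest replicate 1, 2, 4 or 5, vehicle exercise replicate 3, knockout-labelled rest replicate 3 or 5, or knockout-labelled exercise replicate 1, 3 or 5. Fitted on their own 2 groups, Egln2, Higd1a, Hk2, Junb, Mxi1 and Nos1 lost calls between genotypes after exercise (edgeR adjusted p 0.0573 to 0.142). Junb (0.229) and Nr4a1 (0.106) lost them for exercise in vehicle muscle. Library size scaling ended the calls of Mxi1, Nos1 and Higd1a between genotypes after exercise (0.0549 to 0.167) and of Mxi1 at rest (0.107). With no filter on low counts Nr4a1 (0.0574) and Mxi1 (0.0614) lost calls between genotypes after exercise, and Hk2 (0.0525) at rest.

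Reversed signs were all of values without a call. Ndrg1 in vehicle muscle (0.0007) gave 0 with RLE, -0.0215 with upper quartile and -0.0293 with library size scaling, -0.0362 with limma-voom, -0.0015 and -0.0096 with no and a stricter filter, -0.0251 with the block, -0.0017 with its own groups and -0.21 without the low libraries, and -0.083 on average there. Egln3 in knockout-labelled muscle gave -0.29 with limma-voom and -0.10 with the block. With the slow fibre covariate the averaged values of Ankrd37, Egln1 and Ero1l were 0.037, 0.053 and 0.118, and with the endothelial one 0.055, 0.063 and 0.25; the latter also gave 0.042 for Egln1 and 0.067 for Ero1l in vehicle and 0.036 for Adm in knockout-labelled muscle. Without the low libraries Kdm3a in knockout-labelled muscle was -0.0138 and the averaged Egln1 and Ero1l were 0.0155 and 0.121. The slopes of P4ha1 and Kdm3a were 0.0108 and 0.0104 with library size scaling and 0.0108 and 0.029 without the low libraries.

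Leaving out 1 library changed signs within these ranges. In vehicle muscle they were -0.0674 to 0.184 for Vegfa, -0.251 to 0.756 for Egln3, -0.0366 to 0.194 for Ankrd37 and -0.201 to 0.111 for Ndrg1. In knockout-labelled muscle they were -0.327 to 0.0744 for Adm, -0.0462 to 0.0451 for Egln1 and -0.0499 to 0.130 for Kdm3a. On average they were -0.0908 to 0.0635 for Ero1l and -0.0786 to 0.0769 for Ndrg1. For Vegfa they were -0.0103 to 0.217 between genotypes at rest and -0.0431 to 0.222 for the interaction. Slopes ran from -0.0081 to 0.0712 for Adm, -0.0163 to 0.0075 for Kdm3a, -0.0046 to 0.0411 for Ndrg1 and -0.0237 to 0.0038 for P4ha1.

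Replicate numbers did not pair the samples across all groups: 15 of 30 same-numbered pairs had correlated deviations above 0.1 (range -0.448 to 0.437), and 4 of 20 samples correlated best with their own number. Between the 2 exercised groups r was above 0 for every number, at 0.264, 0.437, 0.412, 0.268 and 0.018 for replicates 1 to 5. Replicates 2 and 4 were the libraries low in slow fibre markers in both. Every other pair of groups had r of both signs. A factor shared by number in the exercised sets was not tested. With the number as a replicate block 100 genes and 1 member were called for exercise in vehicle muscle, 79 and 1 on average, and 0 in knockout-labelled muscle. The block ended the calls of Egln2 between genotypes after exercise (0.0587), of Junb for exercise on average (0.0954) and of the Egln1 slope (0.0929), leaving 2 members for the slope. The averaged Junb call was lost in 24 of 34 alternatives, among them limma-voom (adjusted p = 0.276) and the slow fibre covariate (edgeR adjusted p = 0.125). Depth limits Adm and Ankrd37, whose samples hold 5 to 27 counts.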
